A study of Mus musculus with 6 samples.

Results

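The genes described here encode 7 subunits of the GABA-A receptor, named Gabra2, Gabra4, Gabra5, Gabra6, Gabrb1, Gabrb2 and Gabrd. They were taken by name from a list and make up 7 of the 37273 genes, and of the 22367 protein-coding genes, of the mm9 annotation. The study asked where H4K5ac, the acetylation of lysine 5 of histone H4, lies in the hippocampus after fear learning. All 6 libraries came from the hippocampus of C57/BL6 mice aged 6 months. The fear-conditioned group (FC) received foot shocks in a context, and the control group (CON) was exposed to the same context without shock. In each group 1 library was made by precipitation of H4K5ac (H4K5ac-ChIP), 1 is a mock library precipitated with IgG (IgG-IP) and 1 holds chromatin DNA without precipitation (input). The study's methods describe several hippocampal samples per group that were cross-linked separately, but with 1 library per group and antibody no spread between animals is known. No test across samples was therefore made, and every interval given is a 95% interval that covers counting error only. The chromatin came from whole hippocampus, so fewer cells that carry the mark and less of the mark per cell cannot be told apart.

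GABA-A receptors are chloride channels built from subunits around a central pore, and they carry most of the fast inhibition in the brain. Their alpha, beta, gamma and delta subunits decide where a receptor sits on the neuron and how it responds to GABA and to drugs such as benzodiazepines. In the hippocampus, receptors with alpha2 serve synapses, including those on the axon initial segment, while receptors with alpha5 on pyramidal cells and with alpha4 and delta on dentate granule cells carry much of the tonic inhibition outside synapses. Acetylation of H4K5 is a mark of active chromatin, found at promoters and along the bodies of transcribed genes.

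Aligned reads numbered 31605738 in FC and 35962226 in CON with the H4K5ac antibody. The mock precipitations gave 14549689 and 16491741 reads, and the unprecipitated chromatin 45673239 and 35493806. Marker genes were read by the ratio of H4K5ac-ChIP to IgG-IP in the gene body. Of 8 markers of hippocampal neurons, 5 in FC and 3 in CON had a ratio of at least 2, a ratio found in 33.5% and 25.1% of all protein-coding genes tested. Of 5 oligodendrocyte markers 4 and 3 did, of 4 astrocyte markers 0 and 1, of 5 microglial markers 1 and 1, of 6 markers of cerebellar granule cells 0 and 2, and of 6 genes of other organs 0 and 0.

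Most of the members lie in tandem clusters and are long, AT-rich genes. On chromosome 5, Gabra2 (chr5:71352296-71487088, minus strand), Gabra4 (chr5:71960973-72049547, minus strand) and Gabrb1 (chr5:72091171-72529628, plus strand) share a cluster with Gabrg1 and with Cox7b2, and Gabra4 and Gabrb1 stand head to head. On chromosome 11, Gabra6 (chr11:42119939-42134574, minus strand) stands head to head with Gabrb2 (chr11:42233259-42446092, plus strand). The 3′ end of Gabra5 (chr7:64663060-64765379, minus strand) overlaps Gm9962. Gabrd (chr4:154759089-154772221, minus strand) stands apart from other subunit genes, and its promoter overlaps the noncoding gene 5830444B04Rik. Gabrb1 is the longest member with 438 kb and Gabrd the shortest with 13.1 kb, against a median of 15.4 kb over all protein-coding genes. The GC content of the gene body was 50.7% for Gabrd and lay between 35.8% and 40.6% for the other 6, against a median of 45.6% over all protein-coding genes.

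The members also differ in the sequence just upstream of the transcription start site (TSS). CpG dinucleotides, which cluster in the promoters of many broadly active genes, numbered 23 in the 250 bases upstream of Gabrd, 18 for Gabra2, 13 for Gabra5, 12 for Gabra4, 6 each for Gabrb1 and Gabrb2 and 2 for Gabra6. The median over all protein-coding genes was 8. At least 23 were found in 15.2% of protein-coding genes, at least 18 in 25.5%, and at most 2 in 24.6%. The richest and the poorest of these stretches are given below in mm9, 5′ to 3′ on the strand of the gene and ending at the base before the TSS, because Gabrd and Gabra6 had the highest and lowest H4K5ac in the gene body and Gabra2 and Gabra6 in the promoter. Every CpG is in capitals, which is a description of the letters and marks no binding site. They are followed by the stretch of Gabra2 intron that was called higher in CON than in FC and by the called stretch of Gabrd, both on the plus strand.
Gabrd (chr4:154772222-154772471, minus strand): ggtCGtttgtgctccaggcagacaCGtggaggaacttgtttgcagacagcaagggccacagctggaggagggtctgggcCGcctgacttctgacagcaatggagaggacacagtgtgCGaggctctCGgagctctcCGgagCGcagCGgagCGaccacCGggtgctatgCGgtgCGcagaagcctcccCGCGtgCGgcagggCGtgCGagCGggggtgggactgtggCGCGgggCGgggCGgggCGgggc
Gabra2 (chr5:71487089-71487338, minus strand): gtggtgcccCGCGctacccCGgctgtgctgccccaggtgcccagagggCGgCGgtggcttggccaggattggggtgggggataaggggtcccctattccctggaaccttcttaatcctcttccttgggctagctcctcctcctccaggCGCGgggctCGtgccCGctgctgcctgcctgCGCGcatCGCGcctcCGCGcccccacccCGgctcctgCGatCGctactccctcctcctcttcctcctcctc
Gabra6 (chr11:42134575-42134824, minus strand): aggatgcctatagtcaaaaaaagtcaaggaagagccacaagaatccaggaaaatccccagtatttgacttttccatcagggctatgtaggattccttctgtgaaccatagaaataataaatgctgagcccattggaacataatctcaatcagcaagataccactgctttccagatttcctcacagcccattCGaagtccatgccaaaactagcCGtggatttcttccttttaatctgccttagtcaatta
Gabra2 intron (chr5:71475801-71476100): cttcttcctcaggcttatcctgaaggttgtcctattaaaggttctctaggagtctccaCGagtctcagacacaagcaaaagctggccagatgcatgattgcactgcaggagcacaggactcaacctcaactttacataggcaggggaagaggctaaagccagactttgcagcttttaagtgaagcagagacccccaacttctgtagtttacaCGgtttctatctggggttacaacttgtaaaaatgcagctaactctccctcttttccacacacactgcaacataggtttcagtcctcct
Gabrd exon and intron (chr4:154761751-154762050): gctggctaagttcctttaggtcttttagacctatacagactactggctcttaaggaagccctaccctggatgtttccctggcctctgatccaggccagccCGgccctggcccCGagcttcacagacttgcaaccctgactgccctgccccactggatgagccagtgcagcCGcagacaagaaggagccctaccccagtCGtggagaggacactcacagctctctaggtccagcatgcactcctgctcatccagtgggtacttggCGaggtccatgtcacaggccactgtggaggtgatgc

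H4K5ac read density was taken in the gene body, from the first TSS to the last transcription termination site. In FC it separated the members into a high, a middle and a low level. In CON the order of the levels was the same, but the high level was not separate from the middle. Density is given as RPKM, reads per kb of gene scaled to the aligned reads of the library, so that genes of different length can be compared. Gabrd, which encodes the delta subunit of extrasynaptic receptors, had the highest H4K5ac, with 0.826 RPKM (0.741 to 0.919) in FC and 0.699 (0.625 to 0.778) in CON. Its density was 0.340 and 0.254 RPKM in the IgG-IP libraries and 0.670 and 0.489 RPKM in the inputs of FC and CON. The H4K5ac-ChIP libraries were thus the highest of their groups in Gabrd, and the intervals of the FC and CON H4K5ac-ChIP libraries overlapped. In CON the interval of Gabrd also overlapped that of Gabrb1, the next highest member, at 0.603 to 0.628 RPKM.

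The other extreme was Gabra6, whose alpha6 subunit is known from cerebellar granule cells. It had an H4K5ac density of 0.253 RPKM (0.209 to 0.303, 117 reads) in FC and 0.306 RPKM (0.260 to 0.357, 161 reads) in CON. The IgG-IP libraries gave 0.413 and 0.464 RPKM and the inputs 0.290 and 0.397 RPKM in FC and CON. In both groups the H4K5ac-ChIP library was the lowest of the 3 in Gabra6.

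The 5 remaining members lay between, at 0.414 to 0.516 RPKM in FC and 0.529 to 0.615 RPKM in CON for H4K5ac. Gabrb1, which encodes the beta1 subunit, had 0.516 RPKM in FC and 0.615 in CON for H4K5ac, 0.385 and 0.378 for IgG-IP, and 0.292 and 0.390 for input. Gabrb2, which encodes the beta2 subunit, had 0.481 and 0.589 RPKM for H4K5ac, 0.445 and 0.448 for IgG-IP, and 0.276 and 0.429 for input. Both beta subunit genes were thus highest in the H4K5ac-ChIP library of each group. Gabra5, the alpha5 gene, had 0.466 and 0.550 RPKM for H4K5ac, 0.397 and 0.418 for IgG-IP, and 0.376 and 0.431 for input. Gabra4, the partner of delta in dentate granule cells, had 0.424 and 0.554 RPKM for H4K5ac, 0.390 and 0.418 for IgG-IP, and 0.283 and 0.397 for input. Gabra2, the alpha2 gene, had 0.414 and 0.529 RPKM for H4K5ac, 0.420 and 0.426 for IgG-IP, and 0.256 and 0.384 for input, so that H4K5ac stood above IgG-IP in CON and not in FC. In FC the intervals of neighbours in this order overlapped from Gabra2 through Gabra4 and Gabra5 to Gabrb2, and Gabrb1 lay above them, while in CON the intervals of all neighbours among the 5 overlapped. The median over all protein-coding genes was 0.549 RPKM in FC and 0.541 in CON for H4K5ac, so that Gabrd alone lay above it in FC, and Gabrd, Gabrb1, Gabrb2, Gabra4 and Gabra5 in CON.

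**Figure D1:**
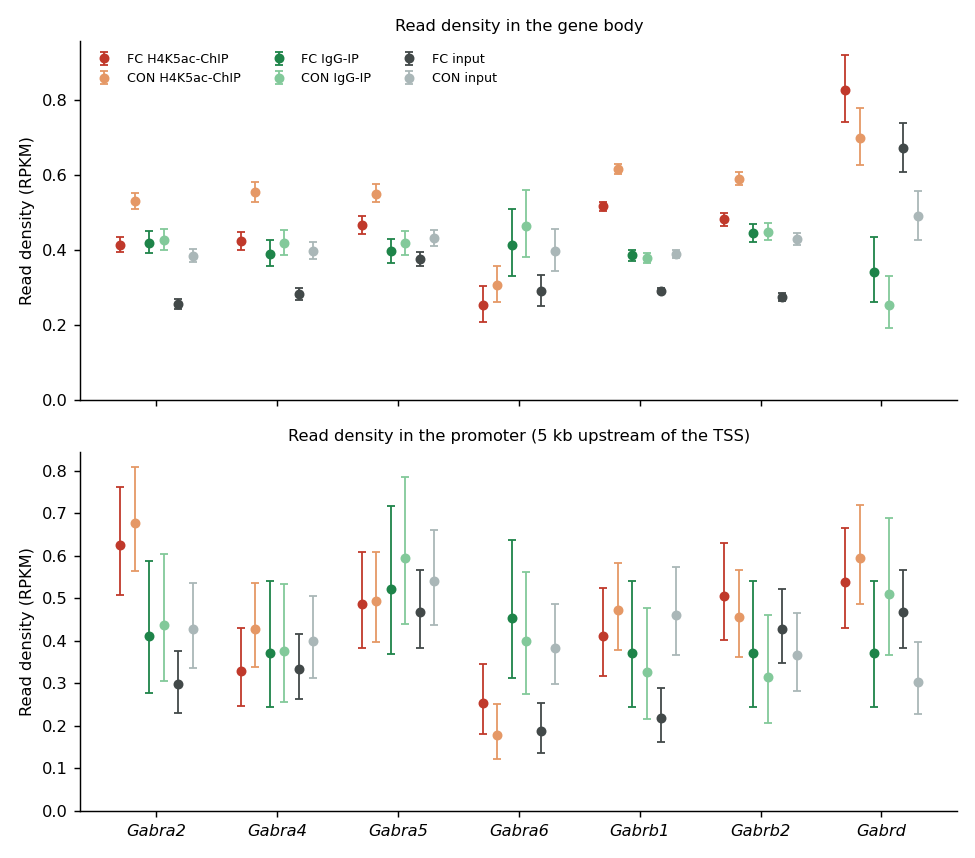
Read density (RPKM) of the 7 members in each of the 6 libraries, in the gene body (top) and the promoter (bottom). Points are the values of single libraries and bars are 95% intervals of counting error. In the gene body Gabrd was highest and Gabra6 lowest in both H4K5ac-ChIP libraries, at 0.826 and 0.253 RPKM in FC.

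As a ratio to IgG-IP in the gene body, 1 of 7 members reached 2-fold in each group, and it was Gabrd both times. Over all protein-coding genes tested 33.5% reached 2-fold in FC and 25.1% in CON, so the members' count was not above the background. Gabrd had a log2 ratio of 1.28 (0.89 to 1.69) in FC, and 1.46 (1.04 to 1.90) was found for CON. That of Gabra6 was −0.71 (−1.12 to −0.29) and −0.60 (−0.96 to −0.24). The ratios of Gabrd rest on 65 IgG-IP reads in FC and 55 in CON. Its IgG-IP density in CON was low, with 15.7% of protein-coding genes below it. Among the others Gabrb1 was highest, with 0.42 (0.36 to 0.49) in FC and 0.70 (0.64 to 0.76) in CON, and Gabra2 lowest, with −0.02 (−0.14 to 0.10) and 0.31 (0.20 to 0.42). The median of the members was 0.12 in FC and 0.40 in CON, against 0.71 and 0.61 over all protein-coding genes. Of the 5 members of at least 50 kb, 0 reached 2-fold, where 23.4% of all such genes did in FC and 17.8% in CON.

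The order of the members depended on the control library. Against input, Gabrb1 was highest in FC with a log2 ratio of 0.82 (0.77 to 0.87), followed by Gabrb2 with 0.80 (0.73 to 0.88) and Gabra2 with 0.69 (0.59 to 0.79), while Gabrd had 0.30 (0.09 to 0.51). In CON, Gabrb1 had 0.66 (0.61 to 0.71) and Gabrd 0.51 (0.27 to 0.76). Gabra6 was lowest against input as well, with −0.20 (−0.54 to 0.14) in FC and −0.37 (−0.68 to −0.07) in CON. The median log2 ratio to input over all protein-coding genes was 0.20 in FC and 0.48 in CON. Of the 7 members, 6 lay above it in FC and 2 in CON. Input in FC was 0.256 to 0.376 RPKM in the members other than Gabrd and Gabra6, against a median of 0.513 over all protein-coding genes. In absolute size, IgG-IP and input differed most in Gabrd, with a log2 ratio of IgG-IP to input of −0.98 (−1.38 to −0.60) in FC, where CON had −0.95 (−1.40 to −0.52). The median of this ratio over all protein-coding genes was −0.49 in FC, while CON had −0.11. The 6 other members lay above the median in each group. In FC, 17.5% of protein-coding genes lay below Gabrd, 95.7% below Gabra2 with 0.71, and 95.4% below Gabrb2 with 0.69. For CON these shares were 2.09%, 86.1% and 77.7%. Measured against other genes, the controls of FC thus differed more unusually in Gabra2 and Gabrb2 than in Gabrd.

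Each gene body was then set against its own surroundings, the stretches up to the next protein-coding gene on each side, which compares densities within a library. For 5 of 7 members H4K5ac in the body was above that of these flanks by at least 0.32 on the log2 scale in both groups. Of all protein-coding genes tested, 40.5% were in FC and 40.5% in CON. That share is over genes of all lengths, and the 5 members are those of at least 50 kb. The share among long genes alone was not computed for this comparison. Gabra2 had 0.414 RPKM in the body and 0.216 in its flanks in FC, and 0.529 and 0.239 in CON, which are log2 ratios of 0.94 (0.85 to 1.02) and 1.15 (1.08 to 1.22). The same ratio of Gabra2 was 0.21 and 0.26 in the IgG-IP libraries and 0.09 and 0.17 in the inputs of FC and CON. The alpha2 gene, with an H4K5ac density below the median of all genes in both groups, thus stood out from the chromatin around it in the H4K5ac-ChIP libraries.

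Gabrb2 behaved alike, with a log2 ratio of body to flanks of 0.92 (0.85 to 0.98) in FC and 1.05 (0.99 to 1.11) in CON for H4K5ac, and between −0.04 and 0.18 in the other 4 libraries. Gabra4 had 0.57 (0.42 to 0.71) and 0.82 (0.69 to 0.95) for H4K5ac and 0.14 to 0.33 in the other 4. Gabra5 had 0.49 (0.37 to 0.61) and 0.69 (0.58 to 0.81) for H4K5ac and −0.23 to 0.09 in the other 4, against a single flank since Gm9962 overlaps its other end. Gabrb1 had 0.36 (0.25 to 0.47) and 0.43 (0.34 to 0.53) for H4K5ac and below 0 in the other 4, down to −0.14. The sides of Gabrb1 were unlike, since the stretch towards Gabra4 had 0.321 and 0.367 RPKM for H4K5ac in FC and CON, and that towards Commd8 had 0.583 and 0.654, above the body of Gabrb1. In these 5 genes the H4K5ac-ChIP ratio was above that of all 4 control libraries. Gabra4 and Gabrb1 share the stretch between them, as do Gabra6 and Gabrb2, so their flanks are not separate measurements.

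Gabra6 and Gabrd did not stand above their flanks by as much. Gabra6 had 0.253 RPKM in the body and 0.276 in the flanks in FC, and 0.306 and 0.317 in CON, log2 ratios of −0.13 (−0.41 to 0.14) and −0.05 (−0.29 to 0.18). The alpha6 gene was thus at the H4K5ac density of the stretches around it within counting error. Gabrd had 0.826 RPKM in the body and 0.710 in the flanks in FC, and 0.699 and 0.677 in CON, log2 ratios of 0.22 (0.03 to 0.40) and 0.05 (−0.14 to 0.23). In CON IgG-IP the same ratio of Gabrd was −0.62 (−1.08 to −0.19), while FC IgG-IP had 0.01 (−0.42 to 0.43). Input gave 0.14 (−0.03 to 0.31) for FC. For CON, input gave 0.24 (0.01 to 0.47), above the H4K5ac value though the intervals overlapped. The delta gene was high in H4K5ac together with its surroundings. Its body was dense in unprecipitated chromatin too, with 87.4% of protein-coding genes below Gabrd in FC input and 90.7% in CON input. By H4K5ac density, 82.5% of these genes lay below Gabrd in FC, against 72.1% for CON. The median log2 ratio of body to flanks was 0.49 in FC and 0.69 in CON over the members and 0.17 in both groups over all protein-coding genes tested, and the comparison with flanks was chosen after the values of the clusters had been seen.

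The clusters on chromosomes 5 and 11 held subunit genes of unlike density side by side. In the chromosome 5 cluster, Gabrg1, which encodes the gamma1 subunit, had 0.186 RPKM in FC and 0.227 in CON for H4K5ac, against 0.177 and 0.186 in the stretch between it and Gabra2. From there the density was higher in Gabra2, lower again at 0.230 and 0.257 in the stretch up to Cox7b2, and then 0.310 and 0.335 in Cox7b2 itself, a gene of cytochrome c oxidase. It was 0.220 and 0.212 between Cox7b2 and Gabra4 and 0.321 and 0.367 between Gabra4 and Gabrb1. Beyond Gabrb1 it was higher, with 0.583 and 0.654 up to Commd8 and 0.733 and 0.858 in Commd8. IgG-IP over the same segments from Gabrg1 to Gabrb1 ranged from 0.296 to 0.426 RPKM over both groups. On chromosome 11 the stretch between Gabra6 and Gabrb2 had 0.284 and 0.331 RPKM for H4K5ac, near the level of Gabra6 and below that of Gabrb2.

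**Figure D2:**
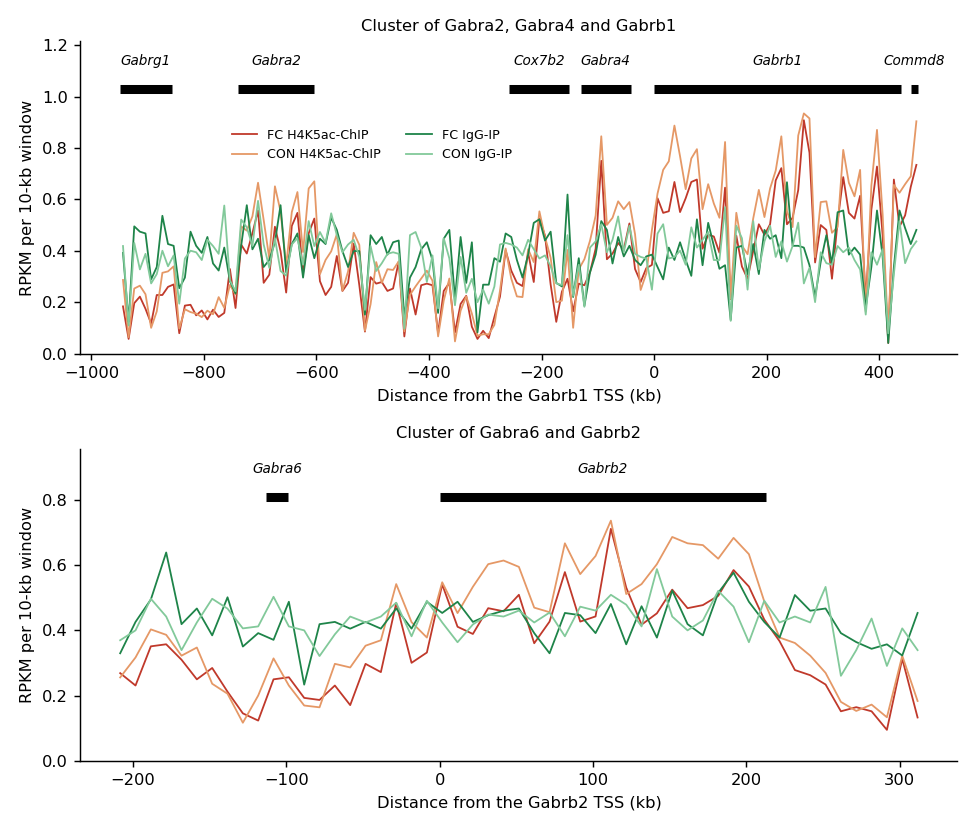
Read density (RPKM) in windows of 10 kb along the cluster of Gabra2, Gabra4 and Gabrb1 (top) and that of Gabra6 and Gabrb2 (bottom), against the distance in kb from the TSS of Gabrb1 and Gabrb2, with H4K5ac-ChIP in red and orange and IgG-IP in green. Black bars are the gene bodies. H4K5ac was higher over Gabra2, Gabra4 and Gabrb2 than in the stretches on either side, and over Gabrb1 than on the side of Gabra4 only, as in the body of Gabrb2 at 0.481 RPKM in FC against 0.284 between Gabra6 and Gabrb2.

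**Figure D3:**
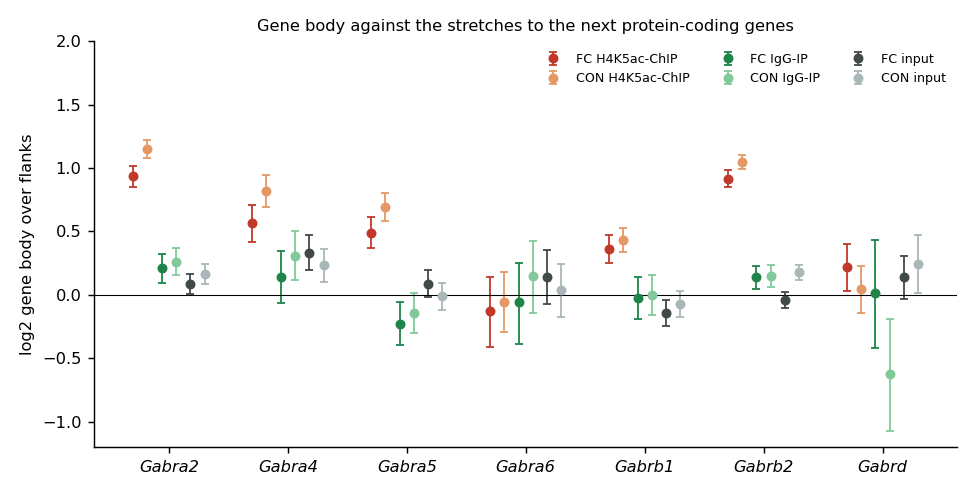
Log2 ratio of read density in the gene body to that in the stretches up to the next protein-coding genes, for the 7 members in each library. Points are single libraries and bars 95% intervals of counting error. The H4K5ac-ChIP points lie above the control libraries in Gabra2, Gabra4, Gabra5, Gabrb1 and Gabrb2, with Gabra2 highest at 0.94 in FC and 1.15 in CON.

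Along the gene, H4K5ac was nearly even in Gabra2 and less so in Gabra5, Gabra4, Gabrb1 and Gabrd. When each gene body was cut into 5 parts of equal length, the FC density of Gabra2 was 0.390, 0.442, 0.407, 0.427 and 0.405 RPKM from the first to the last part, and that of CON 0.544, 0.512, 0.519, 0.592 and 0.483. Gabra5 had 0.605, 0.492, 0.414, 0.289 and 0.533 RPKM in FC and 0.613, 0.576, 0.522, 0.345 and 0.698 in CON. The low part of Gabra5 before the last was also the lowest of the 5 in both inputs, at 0.202 and 0.348 RPKM, and in both IgG-IP libraries, at 0.359 and 0.370. Gabrd was lowest in its middle part, with 0.494 RPKM in FC and 0.392 in CON, and highest in the last, with 1.08 and 0.953. Input was lowest in the middle part of Gabrd as well, with 0.517 and 0.354 RPKM, and in CON highest in the last, with 0.719. The last part of Gabra4 was its lowest in both H4K5ac-ChIP libraries, at 0.280 and 0.389 RPKM. It was also the lowest in both IgG-IP libraries, at 0.264 and 0.288. Gabrb1 was highest in its first part, with 0.595 RPKM in FC and 0.732 in CON. It was lowest in the second, with 0.402 and 0.522. FC input of Gabrb1 was lowest in the second part as well, at 0.214, and CON input in the last, at 0.355. The lowest window of 10 kb in Gabrb1 had between 0.007 and 0.028 RPKM in each of the 6 libraries.

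For H4K5ac, the interval of the ratio of exons to introns lay above 0 in Gabrd in FC and in Gabra2 in both groups. In Gabrd, exonic bases had a log2 ratio to intronic bases of 0.53 (0.18 to 0.88) in FC and 0.33 (−0.04 to 0.69) in CON for H4K5ac, and of 0.34 (−0.55 to 1.16) and 0.42 (−0.54 to 1.31) for IgG-IP. In Gabra2 it was 0.50 in both groups, with intervals of 0.04 to 0.93 in FC and 0.12 to 0.86 in CON, and 0.22 (−0.56 to 0.91) and 0.18 (−0.56 to 0.83) for IgG-IP. The IgG-IP intervals of both genes held the values of H4K5ac-ChIP. In input the ratio of Gabrd was 0.07 (−0.29 to 0.41) in FC, an interval below the H4K5ac value, and 0.51 (0.07 to 0.93) for CON, and that of Gabra2 was 0.49 (−0.01 to 0.95) and 0.26 (−0.23 to 0.72). For the other 5 members the H4K5ac intervals included 0 in both groups. Control libraries had intervals above 0 in other members too, in FC input for Gabrb1 with 1.06 (0.73 to 1.36), Gabrb2 with 0.57 (0.34 to 0.79) and Gabra5 with 0.48 (0.10 to 0.85), and in CON IgG-IP for Gabrb2 with 0.33 (0.01 to 0.64). The densest window of 1 kb in Gabrb1, 270.5 kb from its TSS, held 51 reads in FC and 57 in CON for H4K5ac, against medians of 16 and 23 over its 438 windows, with 7 and 8 reads in IgG-IP and 23 and 25 in input. It was chosen for its height, as was that of Gabrd, 10.6 kb from the TSS, which held 54 and 23 reads for H4K5ac in FC and CON against medians of 28 and 26.

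Promoters, the 5 kb upstream of the TSS, held far fewer reads than gene bodies, between 26 and 122 per library. Here 0 of 7 members reached 2-fold over IgG-IP in either group, against 35.8% of protein-coding genes in FC and 29.2% in CON. Gabra2 had the highest promoter density, with 0.626 RPKM (0.509 to 0.763) in FC and 0.678 (0.563 to 0.810) in CON for H4K5ac, 0.412 and 0.437 for IgG-IP and 0.298 and 0.428 for input. The log2 ratio of this promoter to IgG-IP came to 0.60 (0.0012 to 1.24) in FC, while CON had 0.64 (0.09 to 1.21). Gabra6, whose upstream sequence holds the fewest CpG, was lowest, with 0.253 RPKM (0.181 to 0.345) in FC and 0.178 (0.122 to 0.251) in CON for H4K5ac, 0.454 and 0.400 for IgG-IP and 0.188 and 0.383 for input. The promoter of Gabrd, which has the most CpG, had 0.538 and 0.595 RPKM for H4K5ac, 0.371 and 0.509 for IgG-IP and 0.469 and 0.304 for input, with log2 ratios to IgG-IP of 0.54 (−0.10 to 1.22) and 0.22 (−0.30 to 0.78). Gabrb2, with 6 CpG, had 0.506 and 0.456 RPKM for H4K5ac. Gabrb1, also with 6, had 0.411 and 0.473. Gabra5, with 13, had 0.487 and 0.495, and Gabra4, with 12, had 0.329 and 0.428. A link between CpG and H4K5ac was not tested. Except for Gabra2, where both intervals lay above 0, and Gabra6, where both lay below, the promoter intervals over IgG-IP included 0. Over input, the intervals of Gabra2 lay above 0 in both groups. So did that of Gabrb1 in FC, at 0.91 (0.36 to 1.47), and that of Gabrd in CON, at 0.97 (0.48 to 1.47). Gabra6 was at 0.43 (−0.23 to 1.08) in FC and −1.11 (−1.76 to −0.48) in CON. The other promoter intervals over input included 0.

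Within the promoters of Gabra2, Gabrb1 and Gabrb2, H4K5ac density was higher next to the TSS than farther out. In the last 2 kb before the TSS, Gabrb2 had 0.838 RPKM in FC and 0.723 in CON, against 0.285 and 0.278 from 5 to 2 kb upstream. Its IgG-IP libraries had 0.344 and 0.394 RPKM near the TSS and 0.389 and 0.263 farther out. Gabra2 had 0.775 and 0.918 RPKM near the TSS and 0.527 and 0.519 farther out. Gabrb1 had 0.585 and 0.681 near the TSS and 0.316 and 0.343 farther out. In Gabrb1 the controls were higher near the TSS as well, with 0.412 and 0.394 RPKM against 0.367 and 0.283 for IgG-IP and 0.339 and 0.578 against 0.146 and 0.385 for input. In Gabra4, Gabra5 and Gabrd, H4K5ac was higher near the TSS in FC and lower there in CON, with intervals that did not overlap in FC for Gabrd, at 0.775 RPKM (0.573 to 1.02) against 0.390 (0.275 to 0.538), and in Gabra6 it was lower there in both groups. The intervals of the near and far stretches overlapped in FC for Gabra2 and Gabrb1, and did not overlap in CON for either gene or in any group for Gabrb2, with 37 to 66 reads in the near stretch. Those genes were singled out after their values were seen.

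The comparison of FC with CON asks whether the share of H4K5ac reads in a gene differed after fear learning. Density is scaled to the reads of each library, so a change of the mark across the whole genome would not show. On Western blots the paper reported a higher level of H4K5ac in trained hippocampus than in controls. A ratio below 0 is therefore a lower share of the library, not a measured loss of the mark. In the gene body, H4K5ac was lower in FC than in CON for 6 of 7 members and higher for Gabrd, and the median log2 ratio of FC to CON was −0.27 over the members and 0.04 over all protein-coding genes. Gabra4 had the lowest ratio, −0.39 (−0.49 to −0.28), followed by Gabra2 with −0.36 (−0.44 to −0.27) and Gabrb2 with −0.29 (−0.36 to −0.23). Gabra6 had −0.27 (−0.63 to 0.08), Gabrb1 −0.25 (−0.30 to −0.21) and Gabra5 −0.24 (−0.34 to −0.14). Gabrd had 0.24 (0.02 to 0.46). Gabra2 and Gabra4 were lower in FC by at least 0.32 on the log2 scale, the limit used for this comparison, as were 4.06% of protein-coding genes, and 0 of 7 were higher by as much, against 10.8%. A ratio below 0, found in 6 of 7 members, was found in 41.3% of all protein-coding genes tested.

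The difference was spread over most of each long gene. In windows of 10 kb, H4K5ac was lower in FC in 13 of 13 windows of Gabra2, 8 of 8 of Gabra4, 10 of 10 of Gabra5, 37 of 43 of Gabrb1 and 20 of 21 of Gabrb2. IgG-IP was lower in FC in 7, 4, 5, 24 and 12 of the same windows, and input in 13, 8, 8, 41 and 21. The windows of a gene come from the same pair of libraries and are not replicates.

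The input libraries moved with this difference. Input was lower in FC for the same 6 members, with log2 ratios from −0.64 (−0.71 to −0.56) for Gabrb2 to −0.20 (−0.30 to −0.10) for Gabra5, and higher for Gabrd with 0.45 (0.22 to 0.70). For each member except Gabra5 the input ratio lay farther from 0 than the H4K5ac ratio. The IgG-IP ratio lay between −0.17 and 0.03 for the 6 and was 0.42 (−0.12 to 0.97) for Gabrd, and the interval of all 7 included 0. With input subtracted on the log2 scale the median of the members changed sign, to 0.16, with Gabra2 at 0.23, Gabra4 at 0.11, Gabra5 at −0.04, Gabra6 at 0.18, Gabrb1 at 0.16, Gabrb2 at 0.35 and Gabrd at −0.21. With the IgG-IP ratio subtracted instead, the median was −0.28 and all 7 members were below 0, from −0.33 to −0.11, with Gabrd at −0.18. The direction for 5 of the 6 lower members thus depended on whether input was subtracted, and that of Gabrd on whether either control was.

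**Figure D4:**
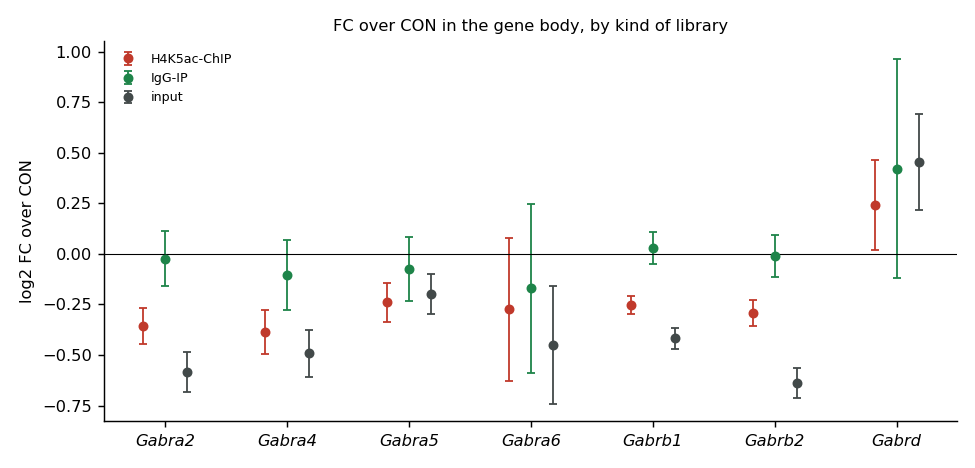
Log2 ratio of FC to CON in the gene body for the H4K5ac-ChIP, IgG-IP and input libraries of each member, with 95% intervals of counting error. H4K5ac-ChIP and input lie below 0 for the 6 members other than Gabrd and above 0 for Gabrd, at 0.24 and 0.45, while the IgG-IP intervals include 0.

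GC content moved with the ratio as well. Across protein-coding genes the ratio of FC to CON had a Spearman's rho with GC content of 0.378 in H4K5ac-ChIP (19455 genes), 0.824 in input (20883 genes) and −0.142 in IgG-IP (18763 genes). These are descriptions of a pair of libraries, and genes are not independent replicates. Among genes with a GC content from 35% to below 41%, the range of the 6 members, H4K5ac was lower in FC in 69.4%, against 6 of 6 members, and lower by at least 0.32 in 5.99%, against 2 of 6. This class was set after the GC content of the members was known. Set against the median of genes in the same step of 1% GC content, the H4K5ac ratio was −0.29 for Gabra4, −0.22 for Gabra2, −0.18 for Gabra5, −0.16 for Gabrb1, and −0.15 for both Gabrb2 and Gabra6, while Gabrd was at 0.13. Of the genes in its own step, 3.45% lay below Gabra4, 7.59% below Gabra2 and 18.1% below Gabra6. The part of GC content and of input in the difference was not tested, and with 1 library per group it cannot be told apart from the treatment.

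**Figure D5:**
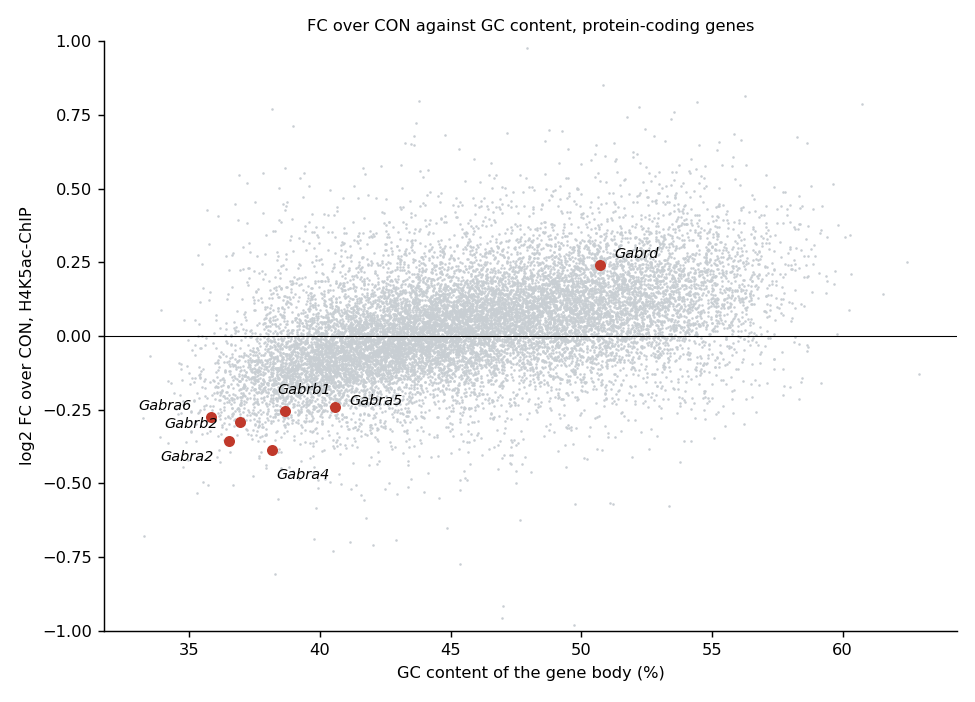
Log2 ratio of FC to CON for H4K5ac-ChIP in the gene body against its GC content, for the 15260 protein-coding genes with at least 200 reads in both libraries together (grey) and the 7 members (red), with 17 genes beyond the axis. The cloud rises with GC content, and 6 members lie at its left at ratios from −0.39 to −0.24 while Gabrd lies at 0.24.

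In the promoter the ratio of FC to CON ranged from −0.38 (−0.92 to 0.15) for Gabra4 to 0.51 (−0.20 to 1.23) for Gabra6, which rests on 40 and 32 reads. The interval of all 7 promoters included 0. Gabra4 was lower by at least 0.32, as were 10.3% of protein-coding genes, and Gabra6 was higher by as much, as were 17.5%. A difference in the promoters was therefore not detectable at this depth.

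Short regions of enrichment were searched by a Poisson scan in windows of 300 bp. Regions higher in H4K5ac-ChIP than in IgG-IP were found in 3 members in FC, Gabrb1, Gabrb2 and Gabrd, and in 1 member in CON, Gabrb1. Against input, they were found in Gabra4 and Gabrb2 in FC and in Gabra4 and Gabrb1 in CON, so that the calls of Gabrb1 and Gabrd in FC rested on IgG-IP as control. Over all protein-coding genes 36.5% held such a region in FC and 38.9% in CON. Of the 5 members of at least 50 kb, 2 held a region in FC, against 58% of such genes, and 1 in CON, against 62.1%. The share of members with a region was thus above that of other genes in FC by less than 1 member, and below it in CON and among the long genes. At a Poisson p of 1e-07, Gabrb1, Gabrb2 and Gabrd held 0 regions over IgG-IP in FC, and Gabrb1 held 2 in CON.

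Gabrb1 held 1 region in FC and 11 in CON. Of those in CON, 10 lay in introns and 1 overlapped an exon by 163 bases, 169 kb from the TSS. With 1 read per position and strand, the 11 held 15 to 34 reads in CON H4K5ac-ChIP and 2 to 24 in FC H4K5ac-ChIP. The CON library was deeper, with 31835758 such reads against 27049994, and the scan over IgG-IP called 45376 regions in CON and 38450 in FC. In the scan of CON over FC, Gabrb1 held 0 regions. The region of FC, at chr5:72360301-72360600 in an intron 269 kb from the TSS, held 16 reads of different position or strand in FC H4K5ac-ChIP, 2 in FC IgG-IP and 8 in FC input, and 9, 1 and 6 in the same libraries of CON. The region of Gabrb2, at chr11:42349501-42349800 in an intron, held 17, 1 and 8 reads in FC and 16, 3 and 6 in CON, so that both H4K5ac-ChIP libraries were high there although the scan called FC alone. The region of Gabrd printed above overlaps a coding exon by 83 bases, and held 22, 1 and 7 reads in FC and 5, 1 and 6 in CON. This stretch was chosen by the scan for its height in FC H4K5ac-ChIP, and Gabrd held 0 regions in the scans of FC over input and of FC over CON.

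Between the groups, 0 of 7 members held a region higher in FC than in CON, against 3.42% of protein-coding genes. Gabra2 held 1 region higher in CON than in FC, as did 2.48% of protein-coding genes, and the call was lost at a Poisson p of 1e-07. That share is over genes of all lengths, and Gabra2 is longer than 92.7% of protein-coding genes. The share among long genes alone was not computed for this scan. The region of Gabra2 is the intronic stretch printed above, 11.1 kb from the TSS. This stretch held 21 reads in CON H4K5ac-ChIP and 7 in FC H4K5ac-ChIP, with 5 and 2 in IgG-IP and 13 and 9 in input. Such a scan sets 1 library against another and is no test of the treatment.

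The other genes of the GABA system were read from lists of their roles. Of 12 further GABA-A subunit genes, 0 reached 2-fold over IgG-IP in either group, and their median log2 ratio was −0.34 in FC and −0.29 in CON. Their median ratio of FC to CON was −0.13, and 0 were higher by at least 0.32. Of 19 genes for GABA synthesis, transport, GABA-B receptors, anchoring and chloride transport, 10 in FC and 4 in CON reached 2-fold, against 33.5% and 25.1% of all protein-coding genes. Gabbr1, a subunit of the GABA-B receptor, had log2 ratios to IgG-IP of 1.19 and 0.98, and Gphn, the scaffold of inhibitory synapses, had 0.39 and 0.48. The median ratio of FC to CON over these 19 was 0.12, with 0 lower and 2 higher by at least 0.32, Gad2 at 0.39 and Slc32a1, the vesicular GABA transporter, at 1.03, against 4.06% lower and 10.8% higher over all protein-coding genes. The value of Slc32a1 rests on 88 and 49 reads, and its ratio was 0.62 in IgG-IP and 0.49 in input. The median GC content was 40.8% for the 12 subunit genes.

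The 5 protein-coding genes whose 6 densities lay nearest to the median profile of the members were Kcnd2, Eif3e, Esco1, Zfpm2 and Snx13, at Euclidean distances of 0.110 to 0.121 on the scale of log2(RPKM + 0.05) among 9580 candidates. Their GC content lay between 36.9% and 38.3%. Kcnd2, which encodes a voltage-gated potassium channel of neuronal dendrites, had 0.465 and 0.547 RPKM for H4K5ac, 0.411 and 0.409 for IgG-IP and 0.270 and 0.407 for input in FC and CON. Among the members Gabra4 lay nearest to the median profile at 0.129, and Gabra6 and Gabrd farthest at 1.09 and 1.53.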

How the data were processed

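The deposited files hold 1 line per read that the authors aligned to mm9 with Bioscope from SOLiD sequencing, and the only value the authors deposited with each read is a mapping quality score, from 4 to 100. Reads at every mapping quality were counted in gene bodies and in the 5 kb upstream of the TSS as annotated by GENCODE on that build. Counts were divided by length and by the aligned reads of the library (RPKM). Repeated reads were kept, and a read across the border of a gene body and its promoter counted in both. Ratios needed at least 20 reads in the pair of libraries and have exact binomial intervals, and densities have exact Poisson intervals. Repeated reads at a position and strand made up 11.5% to 17.8% of a library. Regions were searched with a Poisson scan in windows of 300 bp against a local background of 1, 5 and 10 kb at p of 1e-05, with 1 read per position and strand, and the scan was tested on simulated data. The nearest genes were chosen by Euclidean distance to the median profile of the members. Python 3.11.15, NumPy 2.4.6, SciPy 1.17.1, pandas 2.3.3 and matplotlib 3.10.9 were used. The members and gene lists were chosen with earlier results of these data known. The GC class of 35% to 41%, the count of genes lower at all, the comparison with flanks and the sequences printed were chosen after seeing values. Some results on other subunit genes are not reported here.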

Additional observations from a re-analysis of the deposited data

Results flagged for a closer look

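In the gene body of Gabra2 H4K5ac-ChIP over IgG-IP gave a log2 ratio of −0.0209 (−0.141 to 0.100) in FC against 0.312 (0.204 to 0.421) in CON. These values lie on opposite sides of 0, but the FC interval included 0. In the promoter of Gabra4 the ratio was −0.174 in FC against 0.188 in CON, and both of its intervals included 0. With 1 library per group and antibody, neither difference was tested.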

How the results depend on the processing

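No paired analysis was possible because each group has 1 library per antibody. Of 49 values of single genes under an alternative, 38 lay within the counting interval of the reported value and 7 had the opposite sign, which were those of Gabra2, Gabra4, Gabra6, Gabrb1, Gabrb2 and Gabrd less the input ratio and of Gabrd less the IgG-IP ratio. With input as control, and with ratios centred on the median of protein-coding genes, the members at 2-fold in the gene body went from 1 to 0 in both groups. Those at 2-fold in the promoter went from 0 to 1 in FC with input as control, and with a promoter of 2 kb to 2 in FC and 1 in CON. The median log2 ratio of FC to CON was 0.16 in the gene body and 0.18 in the promoter less the ratio of the inputs, with Gabra2 at 0.23 and Gabra4 at 0.11 in the gene body, and 0.21 in a promoter of 2 kb. The 2 members lower by at least 0.32 became 1 with 1 read per position and strand, 0 relative to genes of the same GC content, 1 less the IgG-IP ratio, and 3 when centred or without the 2 kb next to the TSS. Less the input ratio 1 member, Gabrb2, passed 0.32, and it was higher in FC. At a Poisson p of 1e-07 the members with a region went from 3 to 0 for FC over IgG-IP and from 1 to 0 for CON over FC, and with input as control from 3 to 2 for FC and from 1 to 2 for CON. The causes were not tested. Promoter counts, at most 122 reads, limit what could be seen there.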
